A study of Homo sapiens with 54 samples.

Results

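The gene expression response of MDA-MB-231 cells to Compound Kushen Injection (CKI) without 3 of its components was taken from 6 of the 54 libraries of the series, chosen by treatment, time and batch in the sample labels. Of these, 3 came from cells given N-MacOmtOspc for 24 h and 3 from untreated cells sampled at 24 h, all in batch 1. MDA-MB-231 is an established line from a human triple-negative breast cancer, with mesenchymal features. CKI is an injectable herbal extract used beside cancer treatment in China, and N-MacOmtOspc is CKI with macrozamin (an azoxy glycoside), oxymatrine and oxysophocarpine (the N-oxides of the alkaloids matrine and sophocarpine) removed, given at a dose equivalent to 2 mg/ml of CKI. The labels name no vehicle for the untreated cells. The same 3 N-MacOmtOspc libraries were also set against 3 libraries from cells given whole CKI at 2 mg/ml, and against 3 given N-OmtOspc (CKI without oxymatrine and oxysophocarpine, which still holds macrozamin), both at 24 h in batch 1. The effect at 24 h was compared with that at 48 h in 3 N-MacOmtOspc and 3 untreated libraries of batch 1. RNA was selected with oligo(dT), and the deposited values are whole read counts per gene. The series calls the replicates biological, and they are cultures of 1 cell line.

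The 54 libraries held 17673537 to 26138924 counted reads, and the 6 libraries of the main comparison 18649291 to 25112905. N-MacOmtOspc replicate 2, whose column name carries no replicate number, stood apart: on the log2 scale its correlation across genes was 0.96 with replicate 1 and 0.97 with replicate 3, which had 0.99 with each other, and it was 0.95 with each untreated library. At 48 h, 1106 genes out of 16072 had levels more than 2-fold apart between the untreated cells of batch 2 and batch 1. Over this gene set, the gap between replicate 2 and the other N-MacOmtOspc libraries had a slope of 0.557 on the batch difference. Replicates 1 and 3 had slopes of -0.319 and -0.237. These are not a separate contrast, because the slopes within a group cancel by construction. In untreated replicates 1, 2 and 3 at 24 h, each set against the rest of its group, the slopes were -0.0268, -0.00986 and 0.0367. The labels put N-MacOmtOspc replicate 2 in batch 1, and the part of this pattern in the results was not tested. The totals and the list counts are therefore given with and without it, and the leading genes were required to be DE both ways. The mesenchymal markers VIM, CD44, AXL, CAV1 and MSN were all well expressed, with a summed level of 4236 to 4340 CPM (read counts scaled to a common library total with TMM factors) in untreated and 2776 to 3514 with N-MacOmtOspc. Of 5 luminal markers, ESR1, PGR and FOXA1 had too few reads for a test (1 to 13 reads per group), and GATA3 was at 32.7 CPM in untreated and 17.9 CPM in treated cells. TFF1 was at 1.11 CPM in untreated and 1.97 CPM in treated cells. Markers of other cell types ranged from DCN, with 0 reads in all 6 libraries, to the collagen genes COL1A1 and COL1A2. In the group means COL1A1 rose from 18.4 to 30.0 CPM and COL1A2 fell from 29.4 to 9.23 CPM, both DE. The summed level was 55.9 to 63.6 CPM in untreated and 34.0 to 62.4 with N-MacOmtOspc for the 4 tested of 6 fibroblast markers, 12.7 to 15.5 and 5.39 to 17.8 for the 2 tested of 5 leukocyte markers, and 1.03 to 1.38 and 1.95 to 3.05 for PECAM1, the 1 tested of 3 endothelial markers. The part of these levels in the results was not tested.

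Several stress programmes that tumour cells share are read out at the RNA level by well known target genes. Unfolded protein in the endoplasmic reticulum (ER) raises ER chaperones through ATF6 and XBP1, and phosphorylation of eIF2alpha lets ATF4 and CHOP drive amino acid and antioxidant genes. Free zinc or cadmium raises metallothioneins through MTF1, unfolded cytosolic protein raises HSP70 through HSF1, and electrophiles raise antioxidant enzymes through NRF2. In dividing cells E2F drives the genes of S phase, and the DREAM complex and B-MYB with FOXM1 time those of mitosis.

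After 24 h of N-MacOmtOspc, genes of the cell cycle were lower and genes of the ATF4 branch, metal response, oxidative stress and inflammation were higher than in untreated cells. Differentially expressed (DE) genes, called at an adjusted p under 0.05 by the quasi-likelihood test of edgeR (Benjamini-Hochberg adjustment over all genes tested), numbered 6586 of 14464 tested, 3413 of them higher (23.6%) and 3173 lower (21.9%). Without replicate 2 the number was 10088 of 14766, with 5122 higher (34.7%) and 4966 lower (33.6%). All 6573 genes DE in both had the same direction, though the fits share all libraries but replicate 2. Of the other libraries, leaving out untreated replicate 2 moved the number most, to 4217. The counts without replicate 2 given for the lists below are over the members tested with all 6 libraries. At least 2-fold changes were seen in 1407 of the higher and 1052 of the lower genes. The median log2 fold change over all genes tested was 0.030. With so many genes DE, the shares above are the background for the counts of each list below. With 3 against 3 libraries an exact permutation test on 1 gene cannot go below 0.1, so single genes were judged in the fit across all genes.

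Among genes that averaged 10 CPM or more over the 6 libraries, the largest rise was that of IL24, a cytokine of the IL-10 family first found in melanoma cells. It had 1.79, 2.17 and 2.91 CPM in untreated replicates 1, 2 and 3 and 201, 244 and 201 CPM in N-MacOmtOspc replicates 1, 2 and 3, given in this order throughout. All 3 treated libraries lay far above the untreated ones, and the log2 fold change was 6.54 ± 0.20 (SE, adjusted p = 2.76e-05). HSPA6, an HSP70 that is nearly silent in unstressed cells, had 1.30, 1.29 and 1.65 CPM and 155, 30.4 and 166 CPM, so that replicate 2 was raised but lay well below replicates 1 and 3. Its log2 fold change was 6.36 ± 0.72 (SE, adjusted p = 0.000771). The next were IL1A (5.96), IL1B (5.75), the immediate early gene ARC (5.36), the stress cytokine GDF15 (4.59), the aldo-keto reductase AKR1C1 (4.22), the metallothionein MT1X (4.18), the cytochrome P450 CYP1A1 (4.08) and the neutrophil chemokine CXCL8 (3.98), with adjusted p-values between 0.000114 and 0.00953. GDF15 was the most abundant of the 10, with 61.0, 58.3 and 50.9 CPM in untreated and 2056, 347 and 1709 CPM in treated libraries. In ARC and AKR1C1 replicate 2 lay above the untreated libraries but nearer to them than to replicates 1 and 3. ARC had 29.9, 1.72 and 30.0 CPM with N-MacOmtOspc against 0.435, 0.375 and 0.671 CPM in untreated cells. Without replicate 2 the log2 fold change was 5.90 for ARC, 4.76 for AKR1C1, 6.81 for HSPA6 and 6.43 for IL24.

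Among the same genes the largest fall was that of LGALS12, a galectin, from 60.5, 63.1 and 54.7 CPM to 4.18, 0.928 and 3.21 CPM, a log2 fold change of -4.42 ± 0.42 (SE, adjusted p = 0.000438). Replicate 2 was the lowest of the 3 treated libraries. The next was RCSD1, which encodes a protein that binds the actin capping protein CapZ, with 27.5, 25.0 and 29.4 CPM and 1.83, 2.92 and 2.05 CPM (-3.59 ± 0.19 SE, adjusted p = 8.15e-05). The other 8 of the 10 were FAM111B (-3.31), the mitotic kinesin KIF20A (-3.29), the repressor E2F8 (-3.22), the mitotic kinase PLK1 (-3.07), thymidylate synthase TYMS (-3.04), CDCA3 (-2.94), cyclin E2 CCNE2 (-2.88) and lamin B1 LMNB1 (-2.84). For each of these 8, replicate 2 lay between the untreated libraries and replicates 1 and 3. KIF20A, for example, had 124, 126 and 127 CPM in untreated and 6.29, 24.6 and 7.75 CPM in treated libraries.

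**Figure D1:**
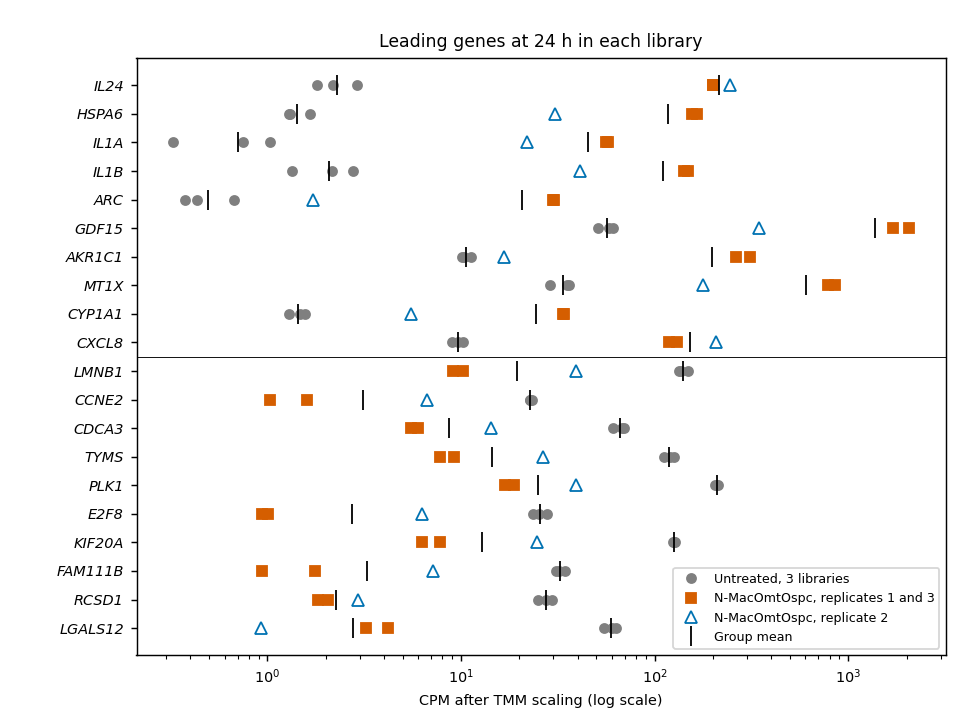
Level of the 10 genes with the largest rise and the 10 with the largest fall in each of the 6 libraries at 24 h, in CPM after TMM scaling on a log axis (circles, untreated; squares, N-MacOmtOspc replicates 1 and 3; triangles, replicate 2; bars, group means). No gene has overlapping groups, which follows closely from choosing the largest changes in these same libraries. The triangle lies between the other treated libraries and the untreated ones for all but IL24, CXCL8 and LGALS12.

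In the mitosis list, every one of the 38 members was lower, with log2 fold changes from -3.29 to -1.06 and a median of -2.23. Without replicate 2 all 38 were still lower and the median was -2.66. The summed level of the list was 5593, 5707 and 5720 CPM in the untreated and 1012, 2114 and 1014 CPM in the treated libraries, so that replicate 2 had the highest level of the 3. PLK1 had 213, 211 and 205 CPM and 18.9, 39.1 and 16.8 CPM, a log2 fold change of -3.07 ± 0.32 (SE, adjusted p = 0.00056). The kinetochore protein NDC80 had 67.7, 66.5 and 66.4 CPM and 5.82, 16.8 and 5.86 CPM (-2.81 ± 0.41 SE, adjusted p = 0.00179). All 37 members of the DNA replication list were lower as well, with a median of -1.73, and -2.06 without replicate 2. TYMS, which makes thymidylate, had 125, 119.9 and 111 CPM and 9.20, 26.5 and 7.79 CPM, a log2 fold change of -3.04 ± 0.45 (SE, adjusted p = 0.00198). RRM2, the regulated subunit of ribonucleotide reductase, had 163, 162 and 161 CPM and 11.2, 66.7 and 11.8 CPM. Its 2 low libraries and 1 intermediate one gave a log2 fold change of -2.44 ± 0.67 (SE, adjusted p = 0.0218), and -3.82 without replicate 2. Without treated replicate 3 or any 1 of the untreated libraries its adjusted p was 0.0562 to 0.0661. GINS2, a subunit of the replicative helicase, fell by 2.49 on the log2 scale.

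Of 20 genes of homologous recombination and Fanconi repair, 16 were lower and none higher, with a median of -1.21, and without replicate 2 it was 17 with a median of -1.72. The helicase BRIP1 (-2.45), the exonuclease EXO1 (-2.04) and RAD51AP1 (-2.03) changed most. Of the 23 tested genes of G1 control, 3 were higher and 14 lower (4 and 17 without replicate 2). The lowest were the activator E2F2 (-3.91, from 9.30, 11.2 and 10.2 CPM to 0.422, 1.5 and 0.120 CPM), E2F8 (-3.22) and CCNE2, while cyclin D2 CCND2 rose from 1.03, 1.21 and 1.25 CPM to 9.76, 10.3 and 9.76 CPM, a log2 fold change of 3.08 ± 0.16 (SE, adjusted p = 6.95e-05), with the 3 treated libraries close together. The CDK inhibitor p21, CDKN1A, rose from 160.0, 155 and 151 CPM to 533, 366 and 509 CPM (1.60 ± 0.15 SE, adjusted p = 0.000429). MYC was higher, at 0.76 ± 0.099 (SE, adjusted p = 0.0012).

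The promoters of PLK1, from the mitosis list, and TYMS, from the DNA replication list, are shown because all members of their lists fell and they hold the motifs searched. The sequences are those of RefSeq in GRCh38.p14, the 250 bases before the annotated start, on the strand of the gene. They lie at chr16:23678639-23678888 (plus strand) and chr18:657403-657652 (plus strand). In PLK1 capitals mark CCAAT and the cell cycle homology element TTTGAA, and in TYMS a match to an E2F site on the other strand.
PLK1: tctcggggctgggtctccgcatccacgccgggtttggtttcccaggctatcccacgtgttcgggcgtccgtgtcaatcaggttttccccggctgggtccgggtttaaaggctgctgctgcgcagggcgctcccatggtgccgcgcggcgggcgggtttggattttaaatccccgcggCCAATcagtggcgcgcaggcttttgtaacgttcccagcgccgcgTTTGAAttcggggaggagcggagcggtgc
TYMS: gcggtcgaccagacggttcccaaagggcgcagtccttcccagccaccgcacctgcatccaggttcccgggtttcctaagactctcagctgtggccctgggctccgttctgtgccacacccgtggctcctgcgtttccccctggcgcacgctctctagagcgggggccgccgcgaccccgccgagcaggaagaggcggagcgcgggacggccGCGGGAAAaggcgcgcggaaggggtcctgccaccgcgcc
Motifs were searched on both strands here and below. The letters TTTGAA or TTCGAA were found in 18 of the 32 mitosis genes with a promoter in the RefSeq table (56.2%) and in 14.6% of all 27305 promoters of that length. CCAAT was found in 75.0% of the mitosis genes and 33.0% of all promoters. KIF20A, the mitosis gene with the largest fall, held 2 matches to CCAAT and none to TTTGAA or TTCGAA, and its promoter is not printed. The E2F letters TTTCCCGC, TTTGGCGC or TTTCGCGC were found in 12 of 32 DNA replication genes (37.5%) and 2.38% of all promoters. A match of letters describes the sequence and does not show binding.

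Of 24 genes of the ATF4 and CHOP branch, 21 were higher and 1 lower, with a median log2 fold change of 1.84, and without replicate 2 the numbers were 21 and 2, with a median of 1.81. STC2, a secreted glycoprotein, had 0.381, 0.417 and 0.581 CPM and 5.49, 3.89 and 6.10 CPM, a low level with groups that did not overlap (3.47 ± 0.29 SE, adjusted p = 0.000284). NUPR1, a stress-induced chromatin protein, had 13.0, 13.2 and 13.0 CPM and 179.7, 38.9 and 154 CPM (3.25 ± 0.52 SE, adjusted p = 0.00277), with replicate 2 far below the others. SLC7A11, the cystine transporter, was different in this respect. It had 23.9, 24.0 and 27.6 CPM and 175, 219 and 199 CPM, with replicate 2 the highest of the 3, and a log2 fold change of 2.97 ± 0.13 (SE, adjusted p = 5.5e-05). CHOP itself, DDIT3, was at 2.76, its partner CEBPB at 2.91, the pseudokinase TRIB3 at 2.57, and the phosphatase subunit PPP1R15A, which reverses eIF2alpha phosphorylation, at 1.94. The enzymes of serine synthesis PHGDH (1.40) and PSAT1 (1.68) and asparagine synthetase ASNS (1.97) were higher, and ATF5 was the member that fell, by 1.90 on the log2 scale.

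Of 18 ER chaperones and ER-associated degradation genes, 14 were higher and 1 lower, with a median log2 fold change of 0.74, and the counts were the same without replicate 2. HSPA5 (BiP), the main HSP70 of the ER, had 722, 748 and 715 CPM and 3903, 2226 and 4038 CPM, a log2 fold change of 2.22 ± 0.22 (SE, adjusted p = 0.000507). Replicate 2 lay between but nearer to the treated libraries on a log scale. DNAJB9 (1.95) and HERPUD1 (1.73) followed, and CRELD2, also an ER stress gene, was lower (-0.74). The HSPA5 promoter is shown because this gene changed most in its list. It lies at chr9:125241344-125241593 (minus strand), with the ER stress response element, CCAAT and CCACG with 9 bases between them, in capitals.
HSPA5: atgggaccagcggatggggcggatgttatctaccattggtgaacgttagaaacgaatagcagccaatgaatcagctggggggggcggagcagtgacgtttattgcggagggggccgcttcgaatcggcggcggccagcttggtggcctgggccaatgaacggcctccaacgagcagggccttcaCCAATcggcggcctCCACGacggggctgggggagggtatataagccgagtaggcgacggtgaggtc
This element was found in 6 of the 17 promoters of the list (35.3%) and in 22 of all 27305 (0.0806%). Among the 6 was CRELD2, which fell.

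Of 14 tested cytosolic heat shock chaperones, 5 were higher and none lower, with a median of 0.067, most members lying near 0. HSPA1A had 306, 289 and 298 CPM and 2486, 712 and 2565 CPM (2.69 ± 0.45 SE, adjusted p = 0.00305), and HSPA1B was at 2.59; these genes encode the same protein and are nearly identical, so their reads could be split between them. HSPH1 (0.96), DNAJB1 (0.69) and HSPA4 (0.38) were the others. The constitutive HSPA8 (0.06, adjusted p = 0.79) and HSP90AA1 (-0.11, adjusted p = 0.551) did not pass the test, and without replicate 2 the numbers were 5 and 4, with a median of 0.043. HSPA6 is not in this list. Its promoter is shown, at chr1:161524290-161524539 (plus strand), with the heat shock letters GAANNTTC or TTCNNGAA in capitals where a base is fixed; the second and the third match overlap.
HSPA6: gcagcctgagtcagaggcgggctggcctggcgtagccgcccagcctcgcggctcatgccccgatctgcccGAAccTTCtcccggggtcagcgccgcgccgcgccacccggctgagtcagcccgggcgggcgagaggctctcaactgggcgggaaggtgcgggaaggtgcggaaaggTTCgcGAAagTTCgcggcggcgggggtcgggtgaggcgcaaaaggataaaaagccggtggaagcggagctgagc
These letters were found in 5 of 14 promoters of the list (35.7%) and 11.7% of all promoters.

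Metallothioneins are small cysteine-rich proteins that bind zinc, copper and cadmium. Of the 10 genes of the list (metallothioneins and the zinc exporter SLC30A1), 6 had enough reads for a test and 5 were higher. MT1X had 36.3, 35.4 and 28.8 CPM in untreated and 853, 178 and 788 CPM in treated libraries, a log2 fold change of 4.18 ± 0.57 (SE, adjusted p = 0.00144). MT1E had 112, 109.7 and 93.2 CPM and 1246, 179 and 1131 CPM (3.02 ± 0.64 SE, adjusted p = 0.0079), and MT1F 5.49, 4.00 and 4.74 CPM and 92.2, 8.93 and 83.3 CPM (3.70 ± 0.79 SE, adjusted p = 0.0081). In each of these replicates 1 and 3 were alike, and replicate 2 lay above the untreated libraries but nearer to them in CPM. MT2A (2.5) and SLC30A1 (1.54) also rose, and MT1A was at 0.061 (adjusted p = 0.832). The summed level of the 6 was 799.9, 787.5 and 657.9 CPM and 6948, 1243 and 6350 CPM. The list's median was 2.76, or 3.22 without replicate 2, and without untreated replicate 3 the number called was 3. The MT1 genes are close paralogs, and reads could be split between them. The MT1X promoter, at chr16:56682220-56682469 (plus strand), is shown with matches to the metal response element, TGCACNC or TGCGCNC on either strand, in capitals where a base is fixed.
MT1X: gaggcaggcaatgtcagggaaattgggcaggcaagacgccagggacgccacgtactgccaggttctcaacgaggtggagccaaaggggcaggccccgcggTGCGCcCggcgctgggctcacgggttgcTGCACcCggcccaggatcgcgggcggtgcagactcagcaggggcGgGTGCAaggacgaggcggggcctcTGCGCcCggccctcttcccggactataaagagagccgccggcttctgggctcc
It held 4 matches. The letters were found in all 4 promoters of the list that the RefSeq table holds and in 24.7% of all promoters.

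Of 25 NRF2 targets, 16 were higher and 1 lower, with a median log2 fold change of 1.0, and without replicate 2 they were 19 and 2, with a median of 0.97. Heme oxygenase HMOX1, which breaks down heme, had 22.2, 24.5 and 22.1 CPM and 427, 89.3 and 421 CPM (3.76 ± 0.56 SE, adjusted p = 0.00203). AKR1C1 had 10.1, 11.3 and 10.3 CPM and 312, 16.7 and 263 CPM (4.22 ± 0.93 SE, adjusted p = 0.00953). Replicate 2 lay close to the untreated libraries, and without untreated replicate 3 the adjusted p of AKR1C1 was 0.0503. The close paralogs AKR1C2 (2.46, adjusted p = 0.0502) and AKR1C3 (1.0, adjusted p = 0.0574) did not pass. Ferritin, which stores iron, was higher in both chains, FTH1 (2.29) and FTL (1.51), and so were the subunits of glutamate-cysteine ligase GCLC (1.04) and GCLM (1.29). NQO1 rose by 0.46 and SRXN1 by 0.36 on the log2 scale, and 6-phosphogluconate dehydrogenase PGD was lower (-0.50). Of the 6 tested targets of the aryl hydrocarbon receptor, which senses planar aromatic compounds, 5 were higher, with a median of 1.08, and without replicate 2 all 6 were. CYP1A1 had 1.47, 1.29 and 1.57 CPM and 33.7, 5.48 and 33.9 CPM (4.08 ± 0.69 SE, adjusted p = 0.00343), the repressor AHRR was at 2.08 and TIPARP at 1.34.

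Of the 18 tested cytokines and chemokines, 16 were higher and 2 lower, with a median log2 fold change of 1.41. These were the same numbers without replicate 2, with a median of 1.54. IL1A, an alarmin of the interleukin 1 family, had 0.326, 0.750 and 1.03 CPM and 56.1, 21.8 and 57.1 CPM (5.96 ± 0.52 SE, adjusted p = 0.000345), and IL1B 2.77, 1.33 and 2.15 CPM and 149, 40.9 and 142 CPM (5.75 ± 0.58 SE, adjusted p = 0.000533). Their untreated level was low, and all 3 treated libraries were above it. CXCL8 had 8.97, 10.3 and 9.66 CPM and 130.4, 207 and 119 CPM (3.98 ± 0.24 SE, adjusted p = 0.000114), highest in replicate 2. The growth factors CSF2 (1.97), CSF3 (1.52), CSF1 (1.06) and LIF (1.30) and the cytokine IL6 (2.09) were higher, while the monocyte chemokine CCL2 had 1.14, 1.79 and 1.92 CPM and 0.188, 0 and 0.201 CPM (-3.59 ± 0.59 SE, adjusted p = 0.00308) and CCL5 was at -1.30. The treated level of CCL2 rests on 9 reads in the 3 treated libraries.

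The CXCL8 promoter is shown, at chr4:73740319-73740568 (plus strand), since CXCL8 was raised in every treated library. It was chosen after the motif search. The promoter of IL24, the largest rise, held no match to the AP-1 or kappaB letters in the same window, and that of STC2 none to TGATGNAA, letters bound by ATF4 with C/EBP factors, so neither is printed. The latter letters were found in 3 of 20 promoters of the ATF4 list and 3.19% of all, GCGTG in 4 of 6 aryl hydrocarbon receptor targets and 31.9% of all, and TGACNNNGC in 4 of 18 NRF2 targets and 11.0% of all. Capitals mark the fixed bases of matches to an AP-1 site, TGANTCA, and a kappaB site, GGANTTTCC.
CXCL8: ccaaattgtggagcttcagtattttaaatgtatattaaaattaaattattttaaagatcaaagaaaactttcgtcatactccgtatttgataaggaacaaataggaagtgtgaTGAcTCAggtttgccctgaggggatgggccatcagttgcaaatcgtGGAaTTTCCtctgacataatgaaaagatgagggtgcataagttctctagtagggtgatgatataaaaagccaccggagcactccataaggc
GGANTTTCC was found in 7 of 15 promoters of the list (46.7%) and in 1.47% of all, and TGANTCA in 3 of the 15 and in 6.6% of all. Of 17 components and feedback targets of NF-kappaB itself, 9 were higher and 4 lower, with a median log2 fold change of 0.48 (11 and 5 without replicate 2). IER3 (2.48), TNFAIP3 (A20, 1.60) and SOD2 (1.48) rose most, while the subunits NFKB1 (-0.81) and RELB (-0.43) and the inhibitor of apoptosis BIRC3 (-0.67) were lower. Without untreated replicate 3 the number called was 8 in place of 13. Interferon-stimulated genes went the other way: of 28, 2 were higher and 11 lower, with a median log2 fold change of -0.20. ISG20 rose (1.47), while OAS3 (-1.34), IFITM2 (-1.0) and IFI35 (-0.90) fell. This count was 22 without replicate 2 (5 higher and 17 lower), and 8 without treated replicate 3 or without any 1 of the untreated libraries.

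**Figure D2:**
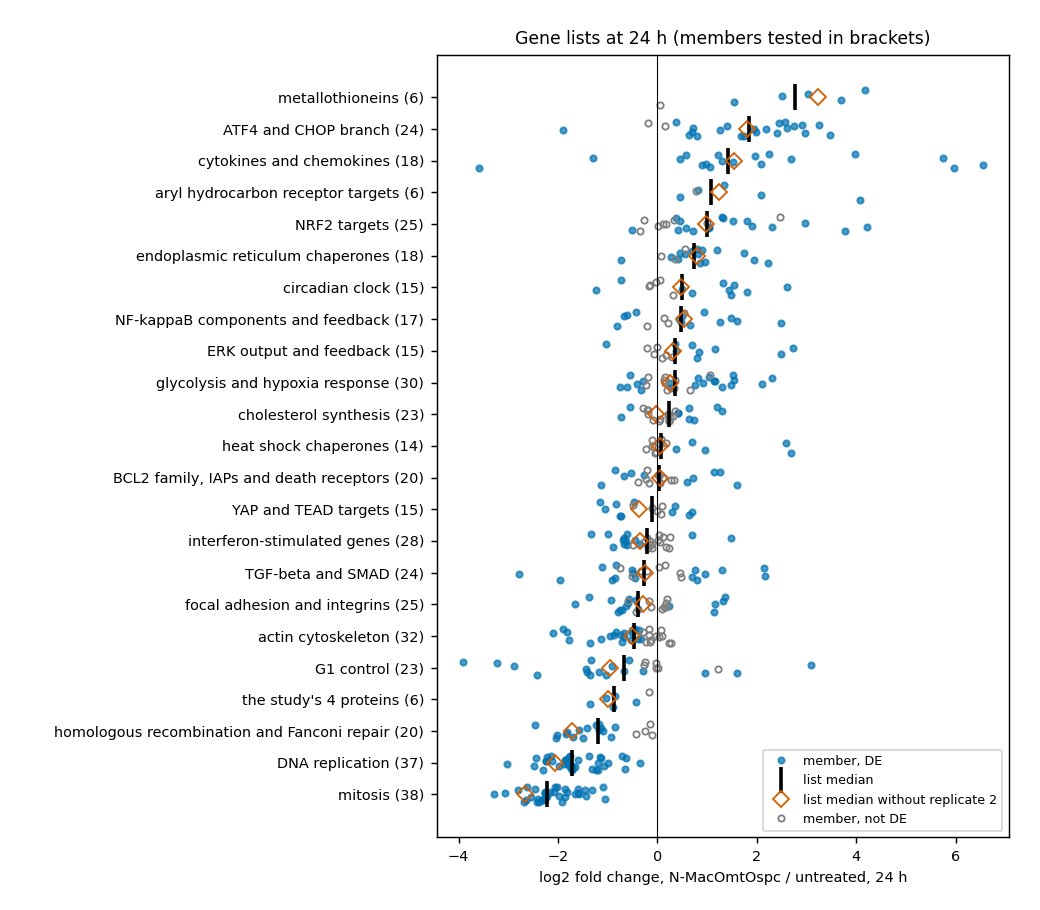
Log2 fold change of each tested member of 23 gene lists, N-MacOmtOspc over untreated at 24 h (filled, DE; open, not DE; bars, list medians from 3 against 3 libraries; diamonds, list medians without replicate 2). The mitosis and DNA replication lists lie wholly below 0, and the largest medians belong to the metallothionein, ATF4 and cytokine lists.

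Genes of the actin cytoskeleton were mostly lower. Of 32, none was higher and 20 were lower, with a median of -0.48, and without replicate 2 the numbers were 2 and 23, with a median of -0.52. Gamma-actin ACTG1 had 4672, 4688 and 4463 CPM and 1055, 1195 and 982 CPM, a log2 fold change of -2.10 ± 0.10 (SE, adjusted p = 6.28e-05). Beta-actin ACTB had 7548, 7579.9 and 7073 CPM and 2817, 3141 and 2708 CPM (-1.36 ± 0.097 SE, adjusted p = 0.000164). In both genes replicate 2 was close to the other treated libraries. Transgelin TAGLN (-1.90), the scaffold IQGAP3 (-1.82) and the myosin light chain MYL9 (-1.78) were also lower. Of 25 genes of focal adhesions and integrins, 5 were higher and 11 lower, with a median log2 fold change of -0.39 (6 and 14 without replicate 2). Caveolin CAV1 had 704, 736 and 699 CPM and 179.7, 323 and 176 CPM (-1.66 ± 0.24 SE, adjusted p = 0.00171) and the adaptor PARVA was at -1.38, whereas the integrin chains ITGA5 (1.35), ITGA2 (1.32), ITGB3 (1.15) and ITGA1 (1.14) were higher and ITGB1 (-0.58), ITGB4 (-0.71) and ITGB5 (-0.93) lower. Of the genes of the proteins the study stained, those lower were CTNNB1 (-0.88 ± 0.12 SE, adjusted p = 0.00137), CCND1 (-1.04 ± 0.18 SE, adjusted p = 0.0034), AKT1 (-0.86 ± 0.11 SE, adjusted p = 0.000974) and AKT2 (-0.44), besides ACTB.

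In the remaining lists members moved both ways. Of 15 YAP and TEAD targets, 4 were higher and 6 lower, with a median log2 fold change of -0.12 (4 and 8 without replicate 2), from FSTL1 (-1.16) to DLC1 (0.70). Of 24 TGF-beta and SMAD genes 7 were higher and 9 lower, with a median log2 fold change of -0.27 (8 and 11 without replicate 2), and the number called was 7 or 8 in place of 16 without treated replicate 3 or any 1 of the untreated libraries. ID3 fell (-2.79) while ID2 rose (2.13). Of 15 genes of ERK output and feedback 8 were higher and 1 lower, with a median log2 fold change of 0.35 (8 and 2 without replicate 2). The ERK phosphatase DUSP5 had 78.4, 82.8 and 75.0 CPM and 521, 525 and 527 CPM, with the treated libraries within a few CPM of each other (2.73 ± 0.088 SE, adjusted p = 2.76e-05). Of 30 genes of glycolysis and the hypoxia response 14 were higher and 6 lower, with a median log2 fold change of 0.35 (16 and 9 without replicate 2). VEGFA had 218, 222 and 242 CPM and 1109, 1144 and 1118 CPM (2.31 ± 0.089 SE, adjusted p = 5.08e-05), NDRG1 was at 2.09 and the glucose transporter SLC2A3 at 1.55, while the glycolytic enzymes PFKL (-0.75), PKM (-0.61) and ENO1 (-0.55) were lower. Of 15 tested clock genes 8 were higher and 2 lower, with a median log2 fold change of 0.49 (8 and 4 without replicate 2), with NR1D1 (2.60), ARNTL (1.81) and BHLHE41 (1.55) highest and PER3 (-1.23) lowest. Of 20 tested genes of the BCL2 family, inhibitors of apoptosis and death receptors 5 were higher and 5 lower, with a median log2 fold change of 0.023 (5 and 7 without replicate 2). With all 6 libraries these counts were near the shares over all genes, 23.6% higher and 21.9% lower, and 10 of the 20 members were not called. Among the members called, the pro-apoptotic BIK (1.60) and BBC3 (1.25) and the receptor TNFRSF10A (1.14) were higher and BCL2 itself lower (-1.14). Of 23 genes of cholesterol synthesis 7 were higher, with MSMO1 (1.30) and HSD17B7 (1.20) first, and 2 lower, MVK (-0.73) and PMVK (-0.56), with a median of 0.22. Without replicate 2 the count was 8 higher and 8 lower and the median -0.029. EXO1, BIK, ID2 and PGD lost their call without at least 1 of the libraries other than replicate 2, with adjusted p-values of 0.0516 to 0.0845.

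The distance of N-MacOmtOspc replicate 2 from the other treated libraries differed between gene groups. Its position was expressed as its log2 change from the untreated mean over that of replicates 1 and 3, for members in which the latter was above 0.5 (1 CPM was added to each level). The median share was 20.0% for the 5 such members of the metallothionein list, 40.2% for 4 heat shock chaperones, 55.6% for 38 mitosis genes and 56.6% for 36 DNA replication genes. By contrast it was 83.4% for 20 genes of the ATF4 branch, 84.3% for 16 actin genes, 94.5% for 16 cytokines and 112% for 15 genes of glycolysis and hypoxia. Single genes ranged more widely, and the lists overlapped. The share went from 34.3% to 103% for mitosis, 25.2% to 171% for DNA replication, 42.0% to 130% for the ATF4 branch and 22.4% to 130% for actin. Members were kept by the change in replicates 1 and 3, which also divides the share and can lower it, and replicate 2 is 1 library. Within the cytokines the share went from 7.19% to 205%. Between untreated cells of batch 2 and batch 1 the median log2 difference was 0.62 for the metallothioneins, 0.012 for mitosis, 0.43 for the ATF4 branch and 0.52 for the cytokines; its part in these shares was not tested.

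**Figure D3:**
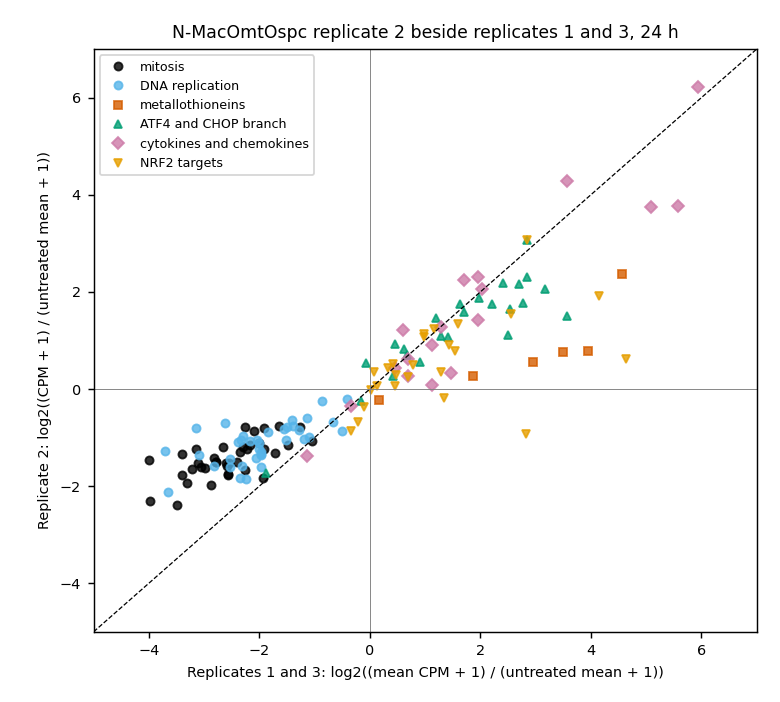
Change from the untreated mean in N-MacOmtOspc replicate 2 (vertical) against that in replicates 1 and 3 (horizontal), log2 of CPM plus 1, for tested members of 6 lists; the dashed line marks equal change. Most mitosis and DNA replication genes lie above the line on the left, most members of the metallothionein list below it on the right, and most cytokines and ATF4 genes near it.

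The direct comparison with whole CKI asked how removing the 3 components changes the profile at the same dose, time and batch. N-MacOmtOspc gave higher levels of cytokines, metallothioneins and ATF4 genes than CKI, and lower levels of some cell cycle genes. Of 14476 genes 3261 were DE, 1737 higher with N-MacOmtOspc (12.0%) and 1524 lower (10.5%). The CKI group also holds a library without a replicate number, its replicate 1, and without it and N-MacOmtOspc replicate 2 the number was 9167 of 14677, with 4622 higher (31.5%) and 4545 lower (31.0%). Without 1 library the number was 5970 for N-MacOmtOspc replicate 2, 1217 for N-MacOmtOspc replicate 1, 570 for N-MacOmtOspc replicate 3, 562 for CKI replicate 2 and 1044 for CKI replicate 3. CXCL8 had 11.1, 6.49 and 6.49 CPM in CKI replicates 1, 2 and 3 against 132, 211 and 121 CPM with N-MacOmtOspc, a log2 fold change of 4.27 ± 0.32 (SE, adjusted p = 0.00169). HSPA6 had 4.38, 0.337 and 0.639 CPM with CKI (6.05 ± 1.02 SE, adjusted p = 0.00972) and IL24 18.4, 6.91 and 5.91 CPM (4.39 ± 0.45 SE, adjusted p = 0.00294), both highest in CKI replicate 1. GDF15 had 48.1, 64.3 and 81.6 CPM with CKI (4.43 ± 0.64 SE, adjusted p = 0.00623), and ARC was at 4.12 ± 0.95 (SE, adjusted p = 0.0235). The groups did not overlap for these 5 genes, which were chosen by their change in the same libraries.

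Lower than with CKI were the sulfiredoxin SRXN1, an NRF2 target, at 624, 465 and 442 CPM with CKI and 129.5, 140.4 and 132 CPM with N-MacOmtOspc (-1.93 ± 0.16 SE, adjusted p = 0.00189), the ubiquitin ligase adaptor ASB2 (-2.08 ± 0.18 SE, adjusted p = 0.00189), the sestrin SESN3 (-1.92 ± 0.39 SE, adjusted p = 0.0156), the histone chaperone ASF1B (-1.93 ± 0.31 SE, adjusted p = 0.00821) and the kinetochore protein SPC24 (-1.95 ± 0.40 SE, adjusted p = 0.0159). In the lists, 13 of 16 tested cytokines were higher and 1 lower (median 2.5), all 6 of the tested metallothionein list were higher (median 2.43), and of 24 ATF4 genes 18 were higher and 1 lower (median 1.34). Without both libraries the counts were 15 and 1 for cytokines, 6 and 0 for the metallothionein list and 21 and 3 for ATF4 genes. The median over all genes was -0.0005. Of 38 mitosis genes 8 were lower and of 37 DNA replication genes 9, with medians of -0.94 and -0.93. Without both libraries these were 37 and 35, with medians of -1.41 and -1.48. With DESeq2 in place of edgeR they were 27 and 26. Of 6 targets of the aryl hydrocarbon receptor none was higher and 3 were lower, or 1 and 4 without both libraries. Of 25 NRF2 targets 2 were higher and 9 lower, or 9 and 11 without both libraries.

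The comparison with N-OmtOspc was between mixtures that, by their names, differ by macrozamin alone. Of 14507 genes 5250 were DE, 2660 higher with N-MacOmtOspc (18.3%) and 2590 lower (17.9%), and without replicate 2 it was 5931 of 14780, with 2931 higher (19.8%) and 3000 lower (20.3%). The split depended on the scaling: with library sizes alone, which moved the median over all genes from 0.04 to 0.32, 4463 were higher and 1472 lower, so directions here are relative to the bulk of genes. It was 2460 without N-OmtOspc replicate 1, 3277 without N-OmtOspc replicate 2 and 3186 without N-MacOmtOspc replicate 3. IL24 had 13.3, 17.2 and 20.3 CPM with N-OmtOspc and 181, 223 and 181 CPM with N-MacOmtOspc (3.52 ± 0.20 SE, adjusted p = 0.000987). CXCL2, a neutrophil chemokine, had 1.65, 0.889 and 3.57 CPM and 24.0, 30.9 and 23.5 CPM (3.65 ± 0.42 SE, adjusted p = 0.00156). The neuroendocrine chaperone SCG5 (3.44 ± 0.38 SE, adjusted p = 0.00138) and PABPC1L (2.46 ± 0.23 SE, adjusted p = 0.00125) were also among the largest rises. Being DE without replicate 2 as well was a condition for naming these 4 genes.

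Lower than with N-OmtOspc were BAMBI, a pseudoreceptor that dampens TGF-beta signals, at 465, 399 and 425 CPM with N-OmtOspc and 59.2, 18.9 and 53.0 CPM with N-MacOmtOspc (-3.30 ± 0.40 SE, adjusted p = 0.0017), the somatostatin receptor SSTR2 (-3.86 ± 0.30 SE, adjusted p = 0.00123), C7orf61 (-3.48 ± 0.29 SE, adjusted p = 0.00123) and RPPH1, the RNA of ribonuclease P, which has no poly(A) tail and varied most, from 21.6 to 117 CPM within the N-OmtOspc group. Of 23 genes of cholesterol synthesis 11 were higher and none lower (median 0.59), the same counts without replicate 2. Of 16 tested cytokines 10 were higher and none lower (median 1.60), and of 18 ER chaperones 8 and none (median 0.53). These medians were positive under each scaling. Of 24 TGF-beta and SMAD genes 2 were higher and 10 lower (median -0.69), and of 14 heat shock chaperones 1 and 5 (median -0.67); these medians were negative under each scaling. Without replicate 2 the counts were 12 higher and none lower for cytokines and for ER chaperones, 2 and 11 for TGF-beta and SMAD, and 1 and 8 for heat shock. The mitosis list had 6 of 38 lower, below the 17.9% over all genes, and a median of -0.39. Without replicate 2 it had 27 lower and a median of -0.84. With library sizes alone, all 6 libraries gave 3 lower and a median of -0.093, against 0.32 over all genes. For DNA replication 1 was higher and 6 lower of 37 (1 and 16 without replicate 2), and the median was -0.032, which turned positive (0.29) with library sizes alone.

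The effect at 48 h, against its own untreated cells, was set against that at 24 h. Of 14953 genes the effect differed for 537, 139 with a more positive effect at 48 h (0.930%) and 398 with a more negative one (2.66%). Without replicate 2 at 24 h it was 2192 of 15190, 996 (6.56%) and 1196 (7.87%), a closer balance, and with library sizes alone it was 71 and 542. Leaving out any 1 of the untreated libraries, or replicate 1 or 3 at 48 h, gave 165 to 303. The median difference over all genes was -0.011. The list with the most differences upward was that of NF-kappaB, in which 7 of 17 members had a more positive effect at 48 h and none a more negative one, with a median difference of 0.78; without replicate 2 it was 11. RELB, a subunit of the noncanonical pathway, was lower than untreated at 24 h (-0.47) and higher at 48 h (1.0), a difference of 1.47 ± 0.19 (SE, adjusted p = 0.00192). It had 42.0, 31.1 and 37.1 CPM with N-MacOmtOspc at 24 h and 85.6, 118 and 90.2 CPM at 48 h. BIRC3 also changed sign, from -0.71 to 0.64 (difference 1.35 ± 0.19 SE, adjusted p = 0.0037). The collagenase MMP1 rose further, from 2.98 to 4.41, as did the AP-1 subunit FOSB, from 1.75 to 3.24.

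Of 38 mitosis genes 12 had a more negative effect at 48 h and none a more positive one, and the median log2 fold change went from -2.26 to -2.95. For DNA replication 4 of 37 differed and the medians were -1.76 and -2.40. Without replicate 2 the counts were 16 more negative and 1 more positive for mitosis and 15 more negative for DNA replication. The gap was smaller: the median difference was then -0.30 in place of -0.97 for mitosis and -0.34 in place of -0.68 for DNA replication. SPC25 had 3.43, 12.6 and 3.75 CPM with N-MacOmtOspc at 24 h and 0.397, 0.566 and 0.427 CPM at 48 h (difference -3.45 ± 0.62 SE, adjusted p = 0.01), and MCM10, which helps activate the replicative helicase, 4.42, 18.1 and 3.59 CPM and 0.617, 0.772 and 0.939 CPM (-3.38 ± 0.70 SE, adjusted p = 0.0211). No member of the heat shock, metallothionein, ER chaperone or cholesterol lists passed this test with all 12 libraries; their numbers without replicate 2 were 2, 1, 5 and 6. A p above the threshold does not show that the effects were equal.

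**Figure D4:**
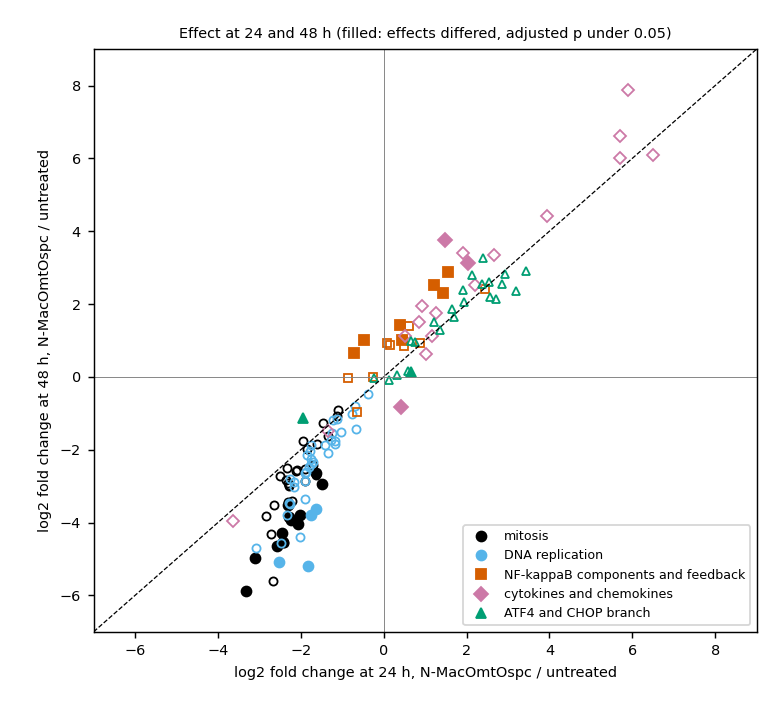
Log2 fold change of N-MacOmtOspc over untreated at 48 h against that at 24 h for tested members of 5 lists, from 1 fit of 12 libraries (filled, the effects differed at an adjusted p under 0.05; dashed line, equal effects). Most NF-kappaB genes lie above the line and most mitosis and DNA replication genes below it.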

How the data were processed

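RNA of MDA-MB-231 cells was selected with oligo(dT), made into strand-specific libraries and sequenced as paired reads. The authors deposited raw read counts per gene (27978 genes, of which 3798 had no count in any library), and the submitters' processing notes name FastQC 0.11.4, Trim Galore 0.3.7, STAR 2.5.3a, featureCounts of Subread 1.5.2, edgeR 3.22.3 and hg19. Counting per gene does not separate near-identical copies, and the strand setting of the counting is not given in the sources used here.

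Counts were tested with edgeR 4.0.16 (R 4.3.3; filterByExpr, TMM, robust quasi-likelihood F-test), with Benjamini-Hochberg adjustment over all genes tested and a threshold of 0.05. Each comparison at 24 h was fitted on its own 6 libraries, and the difference between 48 h and 24 h on 12, so that CPM values were scaled within each comparison. Alternatives used DESeq2 1.42.0, limma 3.58.1 with voom and sample quality weights, other scalings, filters, sets of libraries and a replicate block. In simulated data with 200 genes changed 2-fold and a dispersion of 0.02, 87.9% were recovered in the main comparison and 53.1% in that of times. The dispersion estimated in the main comparison was larger (its square root was 0.168), and no simulated library stood apart. The shares recovered therefore do not give the recovery in the data. P-values measure the spread between cultures of 1 line.

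The comparison and the gene lists were chosen with earlier results of these data known. Named were the 10 largest rises and falls averaging 10 CPM or more and differentially expressed with and without replicate 2, up to 3 members per list by size with the most opposite one, the 5 largest each way in the other comparisons, and the genes of the stained proteins with MYC and CDKN1A. Some genes that met this rule, and 1 gene list, are not reported here. Other list members were chosen after their values were seen. Promoters are RefSeq sequence of GRCh38.p14, another build than that of the counts, and were matched by symbol. Figures used matplotlib 3.10.9.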

Additional observations from a re-analysis of the deposited data

Results flagged for a closer look

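For 10 genes the effect of N-MacOmtOspc at 48 h differed from that at 24 h by the test of the difference itself, a contrast of the 2 effects in edgeR's quasi-likelihood fit of 12 libraries, and these are the 5 largest each way. The effect was more positive at 48 h for FOSB (log2 difference 1.49, adjusted p = 0.02), RELB (1.47, adjusted p = 0.00192), MMP1 (1.42, adjusted p = 0.0402), BIRC3 (1.35, adjusted p = 0.0037) and PLCXD1 (1.32, adjusted p = 0.000501). It was more negative for SPC25 (-3.45, adjusted p = 0.01), MCM10 (-3.38, adjusted p = 0.0211), RAD51AP1 (-2.99, adjusted p = 0.00529), LGALS12 (-2.86, adjusted p = 0.0115) and KISS1 (-2.72, adjusted p = 0.0242). Without N-MacOmtOspc replicate 2 at 24 h the differences were 1.68, 1.36, 1.14, 1.52 and 1.35 for the first 5 genes and -2.58, -2.26, -2.44, -3.26 and -1.94 for the others, in the same order.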

How the results depend on the processing

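Against untreated cells the count of DE genes was 6586, and it was 10798 with voom and sample quality weights, 2459 when a log2 change of 1 or more either way was also required, and 4217 (without untreated replicate 2) to 10088 (without N-MacOmtOspc replicate 2) when 1 library was left out. Against CKI it was 3261, and 9752 with voom, 5404 with all 18 libraries at 24 h in 1 fit, 6938 with a term for the libraries without a number in that fit, 9167 without both such libraries, 1348 with the fold limit, and 562 (without CKI replicate 2) to 5970 (without N-MacOmtOspc replicate 2) with 1 library left out. Against N-OmtOspc it was 5250, and 10548 with voom, 8210 with the term, 2422 with the fold limit, and 2460 (without N-OmtOspc replicate 1) to 5931 (without N-MacOmtOspc replicate 2). For 48 h against 24 h it was 537, and 1109 with DESeq2, 4758 with voom, 2022 with all 54 libraries in 1 fit, 262 with the fold limit, and 165 (without untreated replicate 2 at 24 h) to 2192 (without N-MacOmtOspc replicate 2 at 24 h). Replicate numbers are shared between groups, and whether they pair the libraries was not settled. The correlation of same-numbered deviations from the group means was 0.21, -0.025 and -0.083 in the main comparison. It was -0.52, -0.37 and 0.31 against CKI and -0.16, 0.39 and 0.29 against N-OmtOspc, so that in none were all 3 above 0.1. Against CKI the check may cross libraries, since the CKI library with a 1 in its column name is titled replicate 2. With the replicate number as a block the counts were 6004, 1010, 6321 and 278. Single genes were recomputed under the alternatives for the comparison with untreated cells at 24 h alone, and lists in the other comparisons under scaling and left-out unnumbered libraries alone. Of its named genes' fold changes, 1384 kept their direction and their side of the threshold, 2 passed it newly, 23 (AKR1C1, BIK, CRIM1, EXO1, ID2, PGD, RRM2 and SQLE) missed it and none changed sign. Of its list counts 394 stayed within 1.5 times and 41 did not, among them TGF-beta and SMAD with 7 or 8 of 16 called without replicate 3 or an untreated library and NF-kappaB with 8 of 13 without untreated replicate 3. Except as named, the cause of these shifts was not tested. Depth limits genes at the level of CCL2 or STC2, which rest on few reads in 1 group.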
